A study of Mus musculus with 10 samples.

Results

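The Par complex and the ezrin, radixin and moesin proteins were followed across mouse 8-cell embryos through 9 genes, of 24421 in the deposited tables. The genes were chosen by symbol: the scaffolds Pard6b and Pard3, the atypical protein kinases C Prkci and Prkcz, the basolateral proteins Llgl1 and Mark2, and the membrane-to-actin linkers Ezr, Rdx and Msn. Total RNA was sequenced from embryos of BDF1 genotype in 5 groups of 2 libraries each: controls (Ctrl, labelled Control), a Klf5 knockdown (siKlf5), a Tfap2c knockdown (siTfap2c), and 2 deletions labelled as knockouts of a Tfap2c motif, Arpc1bE_CdxE1_KO and CdxE2_KO. Klf5 is a Krüppel-like transcription factor and Tfap2c is an AP-2 transcription factor. The design asked how gene expression at the 8-cell stage differs with and without interference with Tfap2c. The names of the motif knockouts point to elements near Arpc1b and Cdx2, but the positions of the deletions are not given in the sources used here. How the knockdown was delivered, what the controls received, and whether a motif knockout is uniform within an embryo are not given either. The labels do not say whether the 2 libraries of a group came from separate embryos. Any p-value here reflects how far libraries of the same group lie from each other, pooled over the fitted groups and moderated across genes. That spread may be technical.

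At the 8-cell stage the blastomeres of the mouse embryo flatten against each other and build an apical domain on the outward-facing surface. Pard3, Pard6b and atypical protein kinase C gather there together with ezrin, while Llgl1 and Mark2 are substrates of that kinase and are kept to the basolateral side. Ezrin, radixin and moesin fasten membrane proteins to cortical actin, and cells that inherit the apical domain tend towards the trophectoderm, the outer lineage that Cdx2 specifies.

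All 9 genes passed the filter on low values, and all were on mm10 with 1 gene model each in GENCODE M21. Pard6b lies on chromosome 2 at 168081004-168101203 on the plus strand, Pard3 on chromosome 8 at 127063893-127612286 (plus), Prkci on chromosome 3 at 30995747-31052959 (plus) and Prkcz on chromosome 4 at 155260129-155361361 (minus). Llgl1 lies on chromosome 11 at 60699723-60714186 (plus) and Mark2 on chromosome 19 at 7275396-7341860 (minus). Ezr lies on chromosome 17 at 6738041-6782784 (minus), Rdx on chromosome 9 at 52047173-52088735 (plus) and Msn on the X chromosome at 96096042-96168552 (plus). The values measure whole genes, so no exon or isoform is singled out.

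The 3 genes that were lower in a knockdown, Pard6b, Msn and Prkcz, are shown with the 250 bases before a RefSeq transcription start, because each of these windows holds letters that match the AP-2 consensus. Windows are from RefSeq on GRCm38.p6, the assembly called mm10, written 5′ to 3′ on the strand of the gene. Capitals mark matches on either strand to an AP-2 motif (GCCNNNGGC, its own reverse complement) or to a Krüppel-like factor motif (GGGNGGG or its reverse complement CCCNCCC). The Pard6b window is chr2:168080754-168081003 on the plus strand, the Msn window chrX:96095795-96096044 on the plus strand, and the Prkcz window, 1 of several for that gene, chr4:155361429-155361678 on the minus strand.
Pard6b: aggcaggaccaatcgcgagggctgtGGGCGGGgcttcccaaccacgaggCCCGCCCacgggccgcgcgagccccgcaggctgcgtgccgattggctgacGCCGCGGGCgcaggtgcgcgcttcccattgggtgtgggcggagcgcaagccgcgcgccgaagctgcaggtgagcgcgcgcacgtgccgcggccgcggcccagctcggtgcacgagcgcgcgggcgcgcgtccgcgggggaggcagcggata
Msn: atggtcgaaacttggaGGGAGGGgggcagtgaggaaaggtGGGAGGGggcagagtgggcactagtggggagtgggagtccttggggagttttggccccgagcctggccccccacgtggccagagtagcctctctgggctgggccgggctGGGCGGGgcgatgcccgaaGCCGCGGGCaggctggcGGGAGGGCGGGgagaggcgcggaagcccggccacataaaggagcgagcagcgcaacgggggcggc
Prkcz: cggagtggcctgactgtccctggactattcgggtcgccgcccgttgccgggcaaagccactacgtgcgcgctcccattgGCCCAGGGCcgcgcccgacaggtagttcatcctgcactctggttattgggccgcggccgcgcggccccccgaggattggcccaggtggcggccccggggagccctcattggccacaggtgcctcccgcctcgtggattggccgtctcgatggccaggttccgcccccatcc

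The AP-2 match of Pard6b begins 151 bases before the start, that of Msn 82 bases before and that of Prkcz 171 bases before. The Pard6b window holds 2 Krüppel-like matches, the Msn window 5, of which the last overlap each other, and the Prkcz window 0. The same AP-2 letters stood in 13.7% of 32851 windows of all genes and in 20.8% of 10434 windows of tested genes, and the Krüppel-like letters in 44.8% and 62.5%. Among the 14 windows of the 9 genes, 4 held an AP-2 match and 9 held a Krüppel-like match. The fourth window with an AP-2 match was 1 of Pard3, with 2 matches, and Pard3 was not called against Ctrl in any group. The windows shown were picked for their AP-2 match, so its presence in them is not a result. The windows are rich in G and C (77.6% in Pard6b, 71.6% in Msn, 70.8% in Prkcz), and a match of letters is not a binding site. Bases just after the start of the shown Prkcz window were not found in GENCODE transcripts of Prkcz, while those of its other windows were. The AP-2 match of Prkcz thus lies before a start without that support. The other windows of Prkcz hold no AP-2 match, and those of Rdx hold neither motif.

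The targeted genes and the embryo markers were checked first. Klf5 fell by 2.90 on the log2 scale in siKlf5 and by 1.78 in siTfap2c, and Tfap2c fell by 2.60 in siTfap2c. Cdx2 was lower in all 4 treated groups, by 1.23 to 2.02 on the log2 scale, and Arpc1b, an actin nucleation subunit, fell by 1.31 in Arpc1bE_CdxE1_KO and by 3.34 in siTfap2c, with differences of -0.35 in siKlf5 (adjusted p = 0.095) and 0.16 in CdxE2_KO (adjusted p = 0.35). All 10 markers of the 8-cell embryo were above 0 in every library, with a summed linear level of 1260 in both Ctrl libraries, 1080 to 1110 in siKlf5, 890 to 920 in siTfap2c, 1420 to 1530 in Arpc1bE_CdxE1_KO and 1390 to 1430 in CdxE2_KO. That list includes the targeted genes Klf5 and Tfap2c. In siKlf5 3 of the 10 were called lower (limma adjusted p under 0.05) and Klf17 higher, beside 5.27% and 2.25% of all genes. In siTfap2c 8 were called lower and Klf17 higher, beside 11.9% and 12.6%. Klf17 was also called higher in both motif knockouts, with Dppa3 in Arpc1bE_CdxE1_KO, and Pou5f1 was called lower in CdxE2_KO. Summed markers of cumulus and granulosa cells stayed at 1.16 to 2.22 linear units. Of these 10 markers, only Star passed the filter on low values, and it was called in no comparison. From 3 to 8 of the 10 were at 0 in a library. Markers of sperm summed to 0 to 0.784 and those of blood to 0 to 0.0104. Oocyte markers summed to 41.1 to 42.5 linear units in Ctrl, 40.6 to 46.6 in siKlf5, 38.1 to 45.7 in siTfap2c, 46.9 to 64.8 in Arpc1bE_CdxE1_KO and 58.4 to 61.4 in CdxE2_KO. The whole motif knockout libraries also sat higher: the linear values of a library summed to 478651 to 498621 there, against 388454 to 395401 in Ctrl and the knockdowns. The median difference from Ctrl over all tested genes was 0.27 log2 units in Arpc1bE_CdxE1_KO and 0.29 in CdxE2_KO, and differences in these groups are given beside that shift.

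Pard6b, the scaffold that couples atypical protein kinase C to Cdc42 and Pard3, was lower in both knockdowns. It stood at 2.72 and 2.51 log2 units, on the deposited log2(value + 1) scale, in the 2 Ctrl libraries, at 1.54 and 1.63 in siKlf5 and at 1.56 and 1.82 in siTfap2c. In the motif knockouts it stood at 2.78 and 2.76 in Arpc1bE_CdxE1_KO and at 2.23 and 2.35 in CdxE2_KO. All 4 knockdown libraries lay below every other library, and the CdxE2_KO libraries lay between them and Ctrl. On the linear scale the siKlf5 mean of 2.01 units was 39.1% of the Ctrl mean of 5.13, and the siTfap2c mean of 2.24 was 43.7% of it. Pard6b fell by 1.02 on the log2 scale in siKlf5 (SE 0.14, 95% interval -1.34 to -0.71, adjusted p = 0.0042) and by 0.92 in siTfap2c (SE 0.14, adjusted p = 0.0014); adjusted p-values here and below are from limma with Benjamini-Hochberg adjustment over all genes tested. Both calls held without each library in turn and under every other setting tried. The difference from Ctrl was 0.16 in Arpc1bE_CdxE1_KO (adjusted p = 0.42), and -0.32 in CdxE2_KO (adjusted p = 0.12), which became -0.65 (adjusted p = 0.040) once each library was centred on its median. In bulk libraries such as these, fewer cells of a kind and less RNA per cell cannot be told apart.

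Pard3, the scaffold that anchors the complex to the membrane and to junctions, did not pass the test against Ctrl in any group. It stood at 5.10 and 5.27 log2 units in Ctrl, 5.17 and 5.24 in siKlf5, 5.15 and 5.0 in siTfap2c, 5.46 and 5.53 in Arpc1bE_CdxE1_KO and 5.35 and 5.34 in CdxE2_KO. The knockdown libraries overlapped Ctrl, and the motif knockout libraries lay above it. The difference of 0.30 in Arpc1bE_CdxE1_KO (adjusted p = 0.055) was close to the shift of all genes there and became -0.02 after centring (adjusted p = 0.94). It passed with a minimum of 5 linear units (adjusted p = 0.040) and with all 10 libraries in the fit (adjusted p = 0.030). In siKlf5 the difference from Ctrl was 0.02 and in siTfap2c -0.11.

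**Figure D1:**
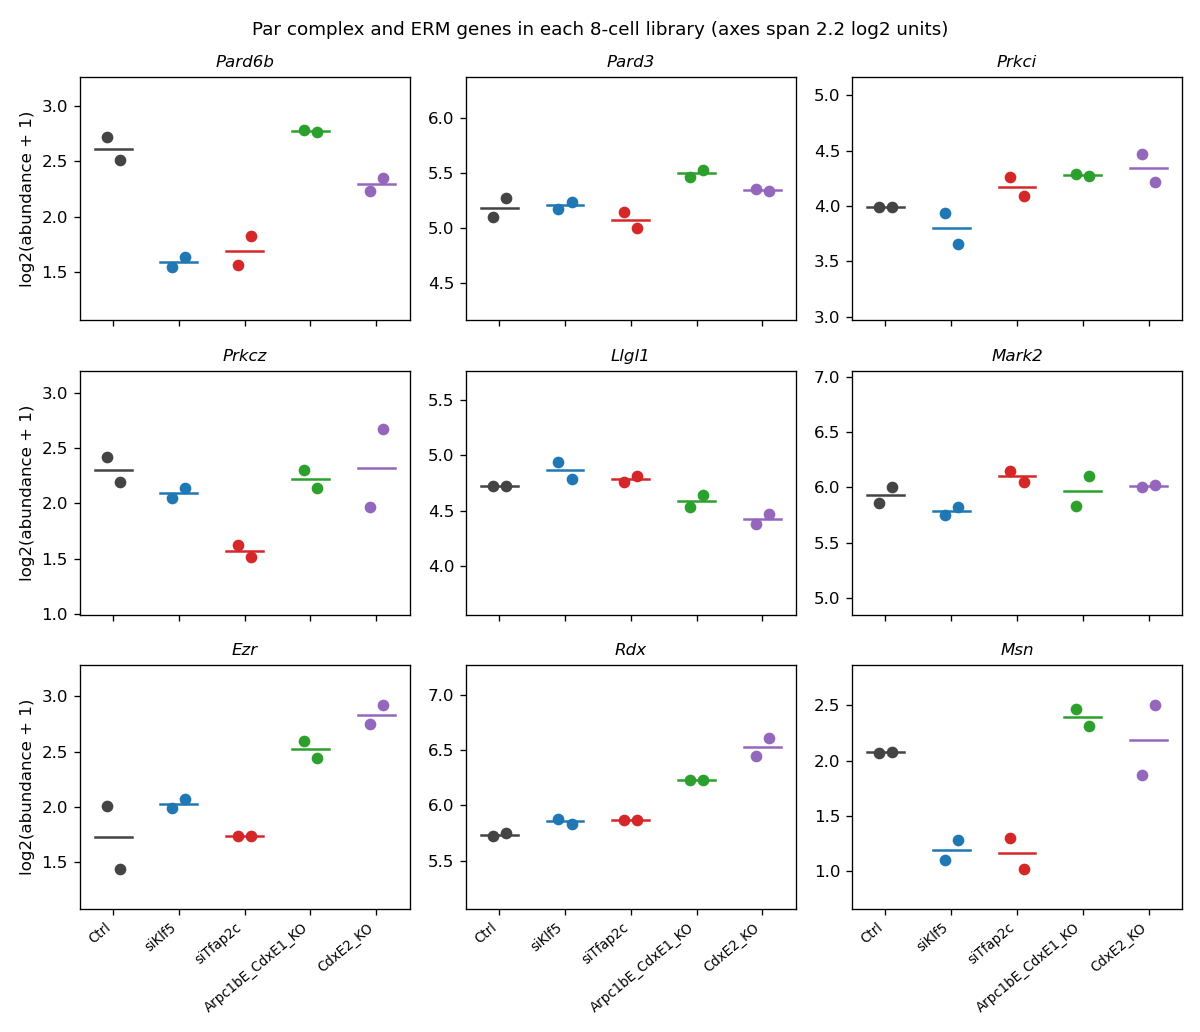
Levels of the 9 genes in each of the 10 libraries, in log2 units (deposited log2(value + 1) scale) on the y axis, with 1 panel per gene, the 5 groups on the x axis, points for libraries and lines for group means. The 4 knockdown libraries of Pard6b, between 1.54 and 1.82, lie below the 2.23 to 2.78 of the other libraries, and Rdx is highest in CdxE2_KO at 6.45 and 6.61.

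Of the 2 atypical protein kinases C, the catalytic members of the complex, Prkcz was called lower in siTfap2c and Prkci was called in no group; the difference between the genes was not tested. Prkcz stood at 2.42 and 2.19 log2 units in Ctrl, 2.05 and 2.14 in siKlf5, 1.62 and 1.52 in siTfap2c, 2.30 and 2.14 in Arpc1bE_CdxE1_KO and 1.97 and 2.67 in CdxE2_KO. Both siTfap2c libraries lay below all 8 others, and the CdxE2_KO pair spanned the whole range of Ctrl. Prkcz fell by 0.73 on the log2 scale in siTfap2c (SE 0.21, adjusted p = 0.030), to 49.9% of the Ctrl linear mean. That call ended without any 1 of the 4 libraries compared (Ctrl replicates 1 and 2, siTfap2c replicates 1 and 2; adjusted p from 0.064 to 0.17) and with no filter on low values (adjusted p = 0.087). In siKlf5 the difference was -0.21 (adjusted p = 0.62), and the direct difference between the knockdowns was -0.53 (adjusted p = 0.097).

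Prkci, the second atypical kinase, stood at 3.99 in both Ctrl libraries, 3.94 and 3.66 in siKlf5, 4.26 and 4.09 in siTfap2c, 4.29 and 4.27 in Arpc1bE_CdxE1_KO and 4.47 and 4.22 in CdxE2_KO. Every siTfap2c and motif knockout library lay above Ctrl and every siKlf5 library below it. None of these differences passed the test: -0.19 in siKlf5, 0.18 in siTfap2c, 0.29 in Arpc1bE_CdxE1_KO and 0.35 in CdxE2_KO (adjusted p = 0.40, 0.33, 0.10 and 0.052). With a minimum of 5 linear units, or with all 10 libraries in the fit, the CdxE2_KO difference passed (adjusted p = 0.038 and 0.048). After centring the differences were 0.02 in CdxE2_KO (adjusted p = 0.92) and -0.03 in Arpc1bE_CdxE1_KO (adjusted p = 0.90).

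Neither basolateral gene passed the test against Ctrl in any group. Llgl1, which Par complex kinase activity pushes off the apical membrane, stood at 4.72 in both Ctrl libraries, 4.94 and 4.79 in siKlf5, 4.76 and 4.81 in siTfap2c, 4.53 and 4.64 in Arpc1bE_CdxE1_KO and 4.38 and 4.47 in CdxE2_KO. All knockdown libraries lay above Ctrl and all motif knockout libraries below it. The difference was 0.14 in siKlf5, 0.07 in siTfap2c, -0.13 in Arpc1bE_CdxE1_KO and -0.29 in CdxE2_KO (adjusted p = 0.39, 0.64, 0.34 and 0.057). The last of these passed after centring, at -0.63 (adjusted p = 0.022), with a minimum of 5 linear units and with all 10 libraries in the fit. Llgl1 was thus below Ctrl in libraries where the median of all genes was above it.

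Mark2, a Par-1 kinase that acts on microtubules and on Pard3, stood at 5.86 and 6.0 log2 units in Ctrl, 5.75 and 5.82 in siKlf5, 6.15 and 6.05 in siTfap2c, 5.83 and 6.10 in Arpc1bE_CdxE1_KO and 6.0 and 6.02 in CdxE2_KO. The siTfap2c libraries lay above Ctrl, the siKlf5 libraries lay below it, and the Arpc1bE_CdxE1_KO pair spanned it. Differences from Ctrl were -0.14 in siKlf5, 0.17 in siTfap2c, 0.04 in Arpc1bE_CdxE1_KO and 0.09 in CdxE2_KO, with adjusted p from 0.25 to 0.82.

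Of the ERM genes, Msn, moesin, was lower in both knockdowns: it stood at 2.07 and 2.08 log2 units in Ctrl, 1.1 and 1.28 in siKlf5, 1.3 and 1.02 in siTfap2c, 2.47 and 2.31 in Arpc1bE_CdxE1_KO and 1.87 and 2.50 in CdxE2_KO. The 4 knockdown libraries lay below all others, and the CdxE2_KO pair lay on both sides of Ctrl. The siKlf5 linear mean of 1.28 units was 39.8% of the Ctrl mean of 3.22, and the siTfap2c mean of 1.25 was 38.7% of it.

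Msn fell by 0.89 on the log2 scale in siKlf5 (SE 0.21, adjusted p = 0.033) and by 0.92 in siTfap2c (SE 0.21, adjusted p = 0.010). The siKlf5 call ended without any 1 of its 4 libraries (Ctrl replicates 1 and 2, siKlf5 replicates 1 and 2; adjusted p from 0.11 to 0.16) and with no filter (adjusted p = 0.097). The siTfap2c call ended without Ctrl replicate 1 (adjusted p = 0.055), Ctrl replicate 2 (adjusted p = 0.054) or siTfap2c replicate 2 (adjusted p = 0.078). Differences in the motif knockouts were 0.31 and 0.11 (adjusted p = 0.31 and 0.72).

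Ezr, ezrin, the linker that marks the apical domain of the blastomeres, was higher in both motif knockouts. It stood at 2.01 and 1.44 log2 units in Ctrl, 1.99 and 2.07 in siKlf5, 1.74 and 1.74 in siTfap2c, 2.60 and 2.44 in Arpc1bE_CdxE1_KO and 2.75 and 2.92 in CdxE2_KO. All 4 motif knockout libraries lay above the other 6, but the 2 Ctrl libraries were themselves further apart than those of any treated group. Ezr rose by 0.80 in Arpc1bE_CdxE1_KO (SE 0.21, adjusted p = 0.033) and by 1.11 in CdxE2_KO (SE 0.21, adjusted p = 0.011), from a Ctrl linear mean of 2.37 units to 4.75 and 6.16. After centring, which takes out the shift of the whole library, the differences were 0.48 (adjusted p = 0.22) and 0.78 (adjusted p = 0.066). Without Ctrl replicate 2, the lower control, they were 0.51 (adjusted p = 0.15) and 0.83 (adjusted p = 0.055). The first call also ended without Arpc1bE_CdxE1_KO replicate 1 (adjusted p = 0.10) or replicate 2 (adjusted p = 0.052), and the second without CdxE2_KO replicate 2 (adjusted p = 0.069). In siKlf5 the difference was 0.31 (adjusted p = 0.36), and in siTfap2c it was 0.02 (adjusted p = 0.96).

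Rdx, radixin, was also higher in the motif knockouts, and here the controls were close together. It stood at 5.72 and 5.75 log2 units in Ctrl, 5.88 and 5.83 in siKlf5, 5.87 in both siTfap2c libraries, 6.23 in both Arpc1bE_CdxE1_KO libraries and 6.45 and 6.61 in CdxE2_KO. No library of a treated group overlapped Ctrl, and the motif knockouts lay above the knockdowns. Rdx rose by 0.79 in CdxE2_KO (SE 0.09, adjusted p = 0.0036), to 175% of the Ctrl linear mean. That call held without each library in turn and after centring, at 0.46 (adjusted p = 0.034). The rise of 0.49 in Arpc1bE_CdxE1_KO (SE 0.09, adjusted p = 0.013) ended after centring, at 0.17 (adjusted p = 0.31), and without Ctrl replicate 1 or Ctrl replicate 2 (adjusted p = 0.084 in each case). Oocyte markers summed higher in the same libraries, as given above. Their median difference was 0.33 in Arpc1bE_CdxE1_KO and 0.42 in CdxE2_KO, beside 0.27 and 0.29 over all genes. Of the 7 tested, 0 and 2 were called higher, beside 23.2% and 28.5% of all genes. The part of these markers in the values of Ezr and Rdx was not tested.

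Counted by comparison, 2 of the 9 genes were called lower and 0 higher in siKlf5, where 7.52% of all tested genes were called, 2.25% higher and 5.27% lower. In siTfap2c 3 of the 9 were called lower and 0 higher, against 24.6% of all genes called, 11.9% lower. In each motif knockout 2 of the 9 were called higher and 0 lower: in Arpc1bE_CdxE1_KO 24.0% of all genes were called, 23.2% higher, and in CdxE2_KO 29.9% were called, 28.5% higher. After centring 0 of the 9 were called in Arpc1bE_CdxE1_KO, where 321 of 10920 tested genes were called, 178 higher and 143 lower. In CdxE2_KO after centring Rdx was called higher and both Pard6b and Llgl1 lower. There 681 of the 10920 genes were called, 288 higher and 393 lower. The motif knockout counts of 2 in 9 are near the share of all genes called higher. After centring, 55.5% of the calls in Arpc1bE_CdxE1_KO and 42.3% in CdxE2_KO were higher, against 96.6% and 95.2% as deposited; in siKlf5 the share went from 29.9% to 46.2%, and in siTfap2c against siKlf5 from 59.1% to 46.5%. Both knockdowns are set against the same 2 Ctrl libraries, so the fall of Pard6b and Msn in each is not a repeat of the same observation in separate controls. The median difference over the 9 genes was -0.14 in siKlf5, 0.02 in siTfap2c, 0.29 in Arpc1bE_CdxE1_KO and 0.11 in CdxE2_KO, beside -0.02, 0.04, 0.27 and 0.29 over all genes.

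Whether the libraries of a group stood wholly above or below Ctrl was counted as well, with no test. In siKlf5 2 of the 9 genes stood above and 5 below, where 24.9% and 30.4% of all genes did. In siTfap2c 4 stood above and 3 below, beside 36.5% and 29.3% of all genes. In Arpc1bE_CdxE1_KO 6 stood above and 1, Llgl1, below, beside 61.9% and 5.43%, and in CdxE2_KO 5 stood above and 2, Llgl1 and Pard6b, below, beside 66.4% and 7.34%. Most of the 9 genes thus stood apart from Ctrl in each group, as most genes of the table did.

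**Figure D2:**
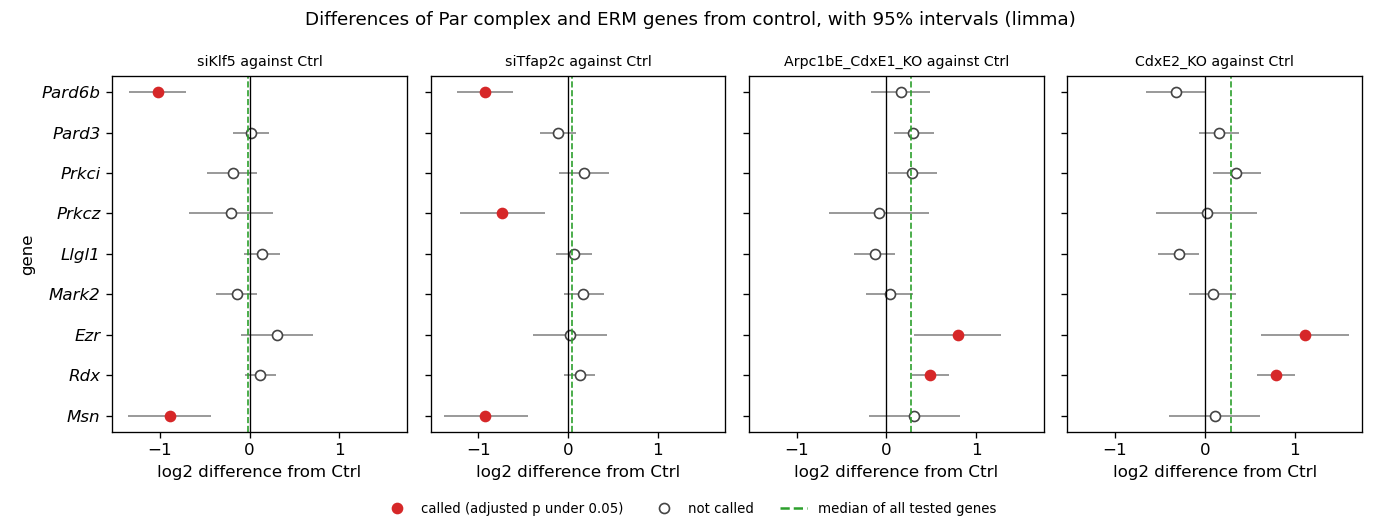
Difference from Ctrl for each of the 9 genes, in log2 units on the x axis with 95% intervals from limma, for the 4 treated groups; filled points passed the test, and the dashed line is the median of all tested genes. Pard6b and Msn lie below 0 in both knockdowns, Prkcz in siTfap2c, and Ezr and Rdx lie above 0 in the motif knockouts.

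The knockdowns were then compared directly, siTfap2c against siKlf5. Of the 9 genes, 1 passed, against 25.6% of all genes called, 15.1% higher: Mark2 was 0.31 higher in siTfap2c (SE 0.10, adjusted p = 0.045). That call ended after centring, at 0.25 (adjusted p = 0.13), and without any 1 of the 4 libraries (siKlf5 replicates 1 and 2, siTfap2c replicates 1 and 2; adjusted p from 0.095 to 0.22). Pard6b and Msn, lower in each knockdown, differed between them by 0.10 (adjusted p = 0.64) and -0.03 (adjusted p = 0.95). Prkci was 0.37 higher in siTfap2c (adjusted p = 0.052). The siTfap2c libraries stood wholly above those of siKlf5 for 2 of the 9 genes and wholly below for 3, beside 38.5% and 28.5% of all genes.

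Between the motif knockouts, CdxE2_KO against Arpc1bE_CdxE1_KO, 0 of the 9 genes passed in limma, where 0.0458% of all genes were called, 0.0366% higher and 0.00916% lower. At an unadjusted p under 0.05 in limma there were 2. Pard6b was 0.48 lower in CdxE2_KO (adjusted p = 0.33), and Rdx was 0.30 higher (adjusted p = 0.35). For both genes the libraries of the 2 groups did not overlap, as for 5 of the 9 genes in all, 2 higher and 3 lower, beside 24.8% and 18.6% of all genes.

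The knockdowns were also set against the motif knockouts, a comparison across tables that was chosen after the values were seen. Relative to Arpc1bE_CdxE1_KO, Pard6b was lower by 1.18 on the log2 scale in siKlf5 (adjusted p = 0.00043) and by 1.08 in siTfap2c (adjusted p = 0.00034), where 38.6% and 42.4% of all genes were called. After centring the differences were -0.81 (adjusted p = 0.0056) and -0.78 (adjusted p = 0.0028), with 18.1% and 33.2% of all genes called. Relative to CdxE2_KO the Pard6b differences of -0.70 in siKlf5 and -0.60 in siTfap2c passed as deposited (adjusted p = 0.0042 and 0.0076; 41.4% and 42.5% of all genes called) but not after centring (-0.31 and -0.28, adjusted p = 0.15 and 0.16; 19.0% and 31.8% called), and the second also ended without siTfap2c replicate 1 (-0.47, adjusted p = 0.064). Msn was lower in siTfap2c than in either motif knockout, also after centring (-0.92, adjusted p = 0.0068, and -0.70, adjusted p = 0.026). In siKlf5 the centred Msn difference was -0.83 from Arpc1bE_CdxE1_KO (adjusted p = 0.023) and -0.61 from CdxE2_KO (adjusted p = 0.065). Rdx was lower in both knockdowns than in CdxE2_KO, also after centring (-0.28 in siKlf5, adjusted p = 0.031, and -0.34 in siTfap2c, adjusted p = 0.0084). Ezr was lower in siTfap2c than in CdxE2_KO, as deposited (-1.09, adjusted p = 0.0013) and after centring (-0.77, adjusted p = 0.0096). In siKlf5 the centred Ezr difference from CdxE2_KO was -0.42 (adjusted p = 0.13). Centred Ezr differences from Arpc1bE_CdxE1_KO did not pass in either knockdown. Llgl1 went the other way: as deposited it was 0.44 higher in siKlf5 than in CdxE2_KO (adjusted p = 0.0046) and 0.36 higher in siTfap2c (adjusted p = 0.0098). After centring these differences were 0.83 (adjusted p = 0.00054) and 0.68 (adjusted p = 0.00051). As deposited, the siTfap2c call ended without CdxE2_KO replicate 1 (0.31) or siTfap2c replicate 2 (0.34). Relative to Arpc1bE_CdxE1_KO, Llgl1 was 0.28 higher in siKlf5 (adjusted p = 0.035) and 0.20 higher in siTfap2c (adjusted p = 0.098) as deposited. After centring these differences were 0.65 (adjusted p = 0.002) and 0.50 (adjusted p = 0.0025). Mark2 in siTfap2c passed only after centring, 0.44 above Arpc1bE_CdxE1_KO (adjusted p = 0.011) and 0.41 above CdxE2_KO (adjusted p = 0.017). Pard3, Prkcz and Prkci each passed as lower in some of these comparisons as deposited, and in none after centring.

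Ranked within each gene, the groups fell into different orders. For Pard6b the order was Arpc1bE_CdxE1_KO, Ctrl, CdxE2_KO, siTfap2c and siKlf5, and only the last neighbours overlapped. For Rdx it was CdxE2_KO, Arpc1bE_CdxE1_KO, siTfap2c, siKlf5 and Ctrl, with the knockdowns overlapping. Ezr had the same first pair, followed by siKlf5, siTfap2c and Ctrl; the Ctrl pair overlapped both knockdowns. For Msn, Arpc1bE_CdxE1_KO, CdxE2_KO and Ctrl overlapped as neighbours and stood apart from siKlf5 and siTfap2c, which overlapped. For Prkcz only the lowest group, siTfap2c, stood apart from its neighbour. Llgl1 ran from siKlf5 and siTfap2c, which overlapped, down to Ctrl, Arpc1bE_CdxE1_KO and CdxE2_KO, each apart from the next.

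Other genes of the polarity machinery were read from lists of known partners, and those called are named here. Of 14 tested Par and basolateral genes other than the 9, 0 were called in siKlf5, and 3 were called higher and 1 lower in siTfap2c. The list median was -0.07 and 0.02. Of all tested genes, 7.52% were called in siKlf5 and 24.6% in siTfap2c, there 12.6% higher and 11.9% lower. Tiam1, a Rac activator that binds Pard3, stood at 5.92 and 6.10 log2 units in Ctrl, 5.72 and 5.64 in siKlf5 and 5.39 in both siTfap2c libraries. The siTfap2c libraries lay below all others, a fall of 0.62 (SE 0.09, adjusted p = 0.0011) that held without each library. The Par-1 kinase Mark1 rose by 0.66 in siTfap2c (adjusted p = 0.0077), Cab39, a scaffold of the Lkb1 kinase complex, by 0.41 (adjusted p = 0.0082) and Stk11, which encodes Lkb1, by 0.29 (adjusted p = 0.016).

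These 3 rises each ended without 2 or more single libraries: Mark1 without Ctrl replicate 1 or siTfap2c replicate 2 (adjusted p from 0.054 to 0.062), Cab39 without Ctrl replicate 2 or siTfap2c replicate 2 (0.062 to 0.071), and Stk11 without Ctrl replicate 1, Ctrl replicate 2 or siTfap2c replicate 2 (0.069 to 0.12). Directly between the knockdowns, Mark1 was 1.12 higher in siTfap2c than in siKlf5 (SE 0.14, adjusted p = 0.00049), which held without each library. Strada, the pseudokinase partner of Lkb1, was 0.51 higher there, and Dlg5 and Tiam1 were lower by 0.43 and 0.30; all of these ended without at least 3 of the 4 libraries (highest adjusted p = 0.13, 0.17 and 0.18). In the motif knockouts the same list gave 1 call each, where 24.0% and 29.9% of all genes were called. Cab39 was higher by 0.34 in Arpc1bE_CdxE1_KO and Strada lower by 0.46 in CdxE2_KO. Both calls ended without at least 3 of the 4 libraries. After centring the first ended, at 0.02 (adjusted p = 0.91), and the second was -0.79 (adjusted p = 0.029).

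The Crumbs complex is the second apical complex of epithelia, and 6 of its 10 listed genes were tested. In siTfap2c 2 were called higher and 1 lower, beside 12.6% and 11.9% of all genes. The lower gene was Amot, angiomotin, which binds the Crumbs-associated scaffold Patj and restrains Yap: it stood at 4.98 and 4.97 log2 units in Ctrl, 4.62 and 4.81 in siKlf5, 2.46 and 2.50 in siTfap2c, 4.90 and 5.25 in Arpc1bE_CdxE1_KO and 4.99 and 4.82 in CdxE2_KO. The siTfap2c libraries stood far below all others, a fall of 2.49 (SE 0.13, adjusted p = 2.6e-06) that held under every setting tried. Lin7c, a small scaffold, rose by 0.49 in siTfap2c (adjusted p = 0.0068), which also held throughout. Inadl, the symbol used here for Patj, rose by 0.37 (adjusted p = 0.037), a call that ended without Ctrl replicate 1 or siTfap2c replicate 2 (adjusted p from 0.23 to 0.24). Between the knockdowns Amot was lower in siTfap2c by 2.24 (adjusted p = 5.1e-06), which held throughout, and Lin7c and Inadl were higher by 0.34 and 0.40, which ended without 3 of the 4 libraries each (highest adjusted p = 0.22 and 0.18).

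In siKlf5 1 Crumbs gene was called, beside 7.52% of all genes. Crb3, the transmembrane Crumbs protein of epithelia, fell by 0.47 (adjusted p = 0.032). That call ended without any 1 of the 4 libraries (differences from -0.54 to -0.41). In Arpc1bE_CdxE1_KO 3 were called higher, Lin7c by 0.41, Mpdz by 0.50 and Mpp5, the scaffold Pals1, by 0.54. In CdxE2_KO 2 were called higher, Mpdz by 0.52 and Mpp5 by 0.72. The shares of all genes called higher were 23.2% and 28.5%. After centring all 5 of these calls ended, with differences of 0.09, 0.18 and 0.22 in Arpc1bE_CdxE1_KO and 0.19 and 0.39 in CdxE2_KO. Each of these motif knockout calls ended without at least 3 of the 4 libraries (highest adjusted p = 0.14 for Lin7c, 0.19 for Mpdz and 0.14 for Mpp5 in Arpc1bE_CdxE1_KO, and 0.15 for Mpdz and 0.07 for Mpp5 in CdxE2_KO). The list median was 0.29 and 0.21 there, near the shift of all genes.

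Of the regulators and partners of the ERM proteins, 13 of 18 listed genes were tested. In siTfap2c, Arhgdia stood at 2.68 and 3.25 log2 units, against 5.81 and 5.84 in Ctrl, 5.89 and 5.88 in siKlf5, 5.63 and 6.0 in Arpc1bE_CdxE1_KO and 5.89 and 5.77 in CdxE2_KO. The siTfap2c libraries stood far below all others, and the fall of 2.86 (SE 0.18, adjusted p = 6.5e-06) held under every setting tried. In siKlf5, Rhoa, the GTPase upstream of the ERM-activating kinases, stood at 5.45 and 5.42 log2 units, against 6.02 in both Ctrl libraries and 6.04 in both siTfap2c libraries. Rhoa fell by 0.59 in siKlf5 (SE 0.07, adjusted p = 0.0022), and the call held under every setting tried. Rhoa was the only gene of this list called there, where 7.52% of all genes were called. The difference between the knockdowns was 0.61 for Rhoa (adjusted p = 0.00030) and -2.92 for Arhgdia (adjusted p = 8.2e-06), so each of these falls was larger in its own knockdown than in the other.

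Also in siTfap2c, Podxl, podocalyxin, an ERM-bound surface sialoprotein, rose by 0.89 (adjusted p = 0.029), and Ppp1r12a, the myosin phosphatase subunit, fell by 0.28 (adjusted p = 0.017). Both calls ended without any 1 of the 4 libraries (adjusted p from 0.053 to 0.18 and from 0.073 to 0.093). Podxl lay just below the filter of 1 linear unit in Ctrl (0.994 and 0.973) and above it in siTfap2c (3.17 and 2.26). Its place among the tested genes thus rests largely on groups where it was high. Between the knockdowns Podxl was higher in siTfap2c by 0.95. Pip5k1a, a lipid kinase that makes the ERM-binding phosphoinositide, was higher by 0.49, and Rock1 was lower by 0.38. Each of these calls ended without at least 2 of the 4 libraries (highest adjusted p = 0.14, 0.20 and 0.081).

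In the motif knockouts the ERM regulators called were all higher: 4 of 13 in Arpc1bE_CdxE1_KO and 8 of 13 in CdxE2_KO, beside 23.2% and 28.5% of all genes, with list medians of 0.26 and 0.40. They included kinases linked to ERM phosphorylation: Slk, higher by 0.50 and 0.75, Stk10, higher by 0.63 and 0.80, and Rock1, higher by 0.43 and 0.71. The others were Ppp1r12a in both, at 0.26 and 0.43, and the following in CdxE2_KO. Nf2, the ERM relative merlin, was higher by 0.52, Pip5k1c by 0.40, Rock2 by 0.34 and Slc9a3r1, the scaffold that binds ezrin, by 0.77. Slc9a3r1 lay below the filter of 1 linear unit in Ctrl (0.964 and 0.784) and stood at 1.83 and 2.61 in CdxE2_KO. It was thus tested only through the motif knockout libraries, where it was high. Rock1 and Slk in CdxE2_KO kept their calls without each library; the other 10 calls ended without at least 2 of the 4 libraries, Ctrl replicate 1 among them each time (adjusted p from 0.052 to 0.25). After centring each of these 12 calls ended, Rock1 and Slk in CdxE2_KO at 0.37 (adjusted p = 0.075) and 0.42 (adjusted p = 0.055), and Ppp1r12a in Arpc1bE_CdxE1_KO turned to -0.06.

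Among the other protein kinases C, 3 genes were tested, of which 1 was called lower in siTfap2c and 1 higher in CdxE2_KO. Of all genes, 11.9% were called lower in siTfap2c and 28.5% higher in CdxE2_KO. In siKlf5 and Arpc1bE_CdxE1_KO 0 of the 3 were called, beside 7.52% and 24.0% of all genes. Prkce fell by 0.80 in siTfap2c (SE 0.16, adjusted p = 0.0062), which held without each library. Prkcd rose by 0.74 in CdxE2_KO (adjusted p = 0.0060), which ended after centring, at 0.41 (adjusted p = 0.066), and without CdxE2_KO replicate 2 (adjusted p = 0.051).

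**Figure D3:**
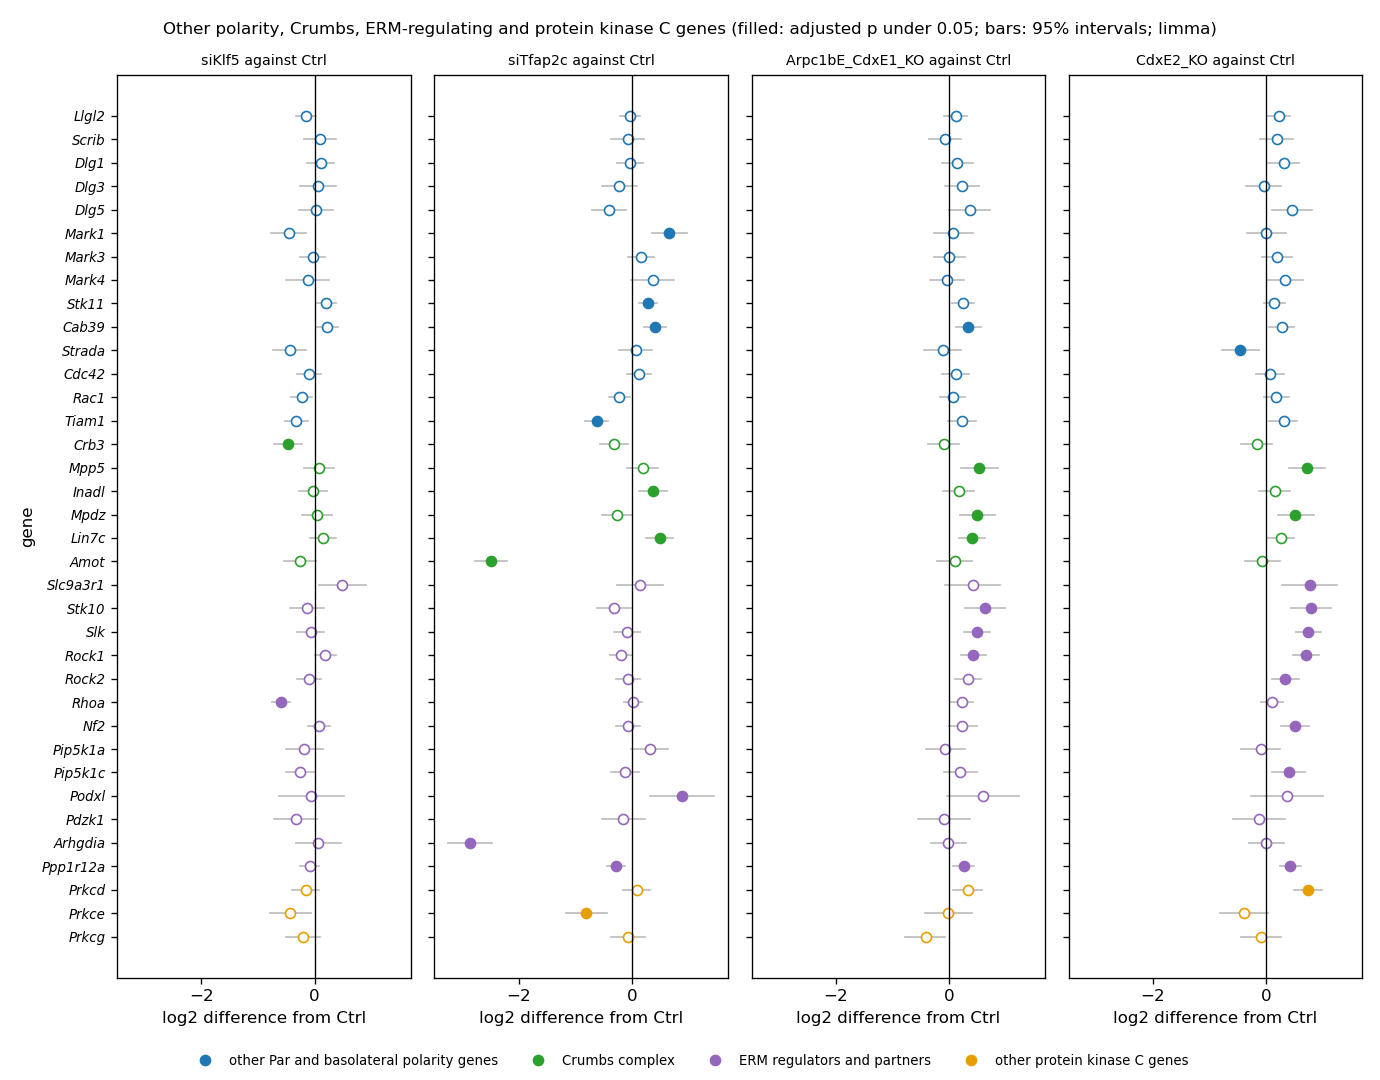
Difference from Ctrl, in log2 units, of the tested genes of the partner lists (Par and basolateral, Crumbs, ERM regulators, other protein kinases C) in the 4 treated groups, with 95% intervals from limma, colours for the lists and filled points for those that passed the test. Amot at -2.49 and Arhgdia at -2.86 stand far to the left in siTfap2c, and most ERM regulators lie right of 0 in CdxE2_KO.

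For each of the 9 called against Ctrl, the 3 genes with the most alike profile were found, by the root mean square difference of values centred on their mean over the 10 libraries. For Pard6b these were Aebp1, Fam129a and Stx1a, at 0.16 log2 units each, where the median over all genes was 0.47. Stx1a, for example, stood at 2.0 and 1.90 log2 units in Ctrl, 1.02 and 1.22 in siKlf5 and 0.81 and 1.1 in siTfap2c, and it was also among the nearest to Msn at 0.17, behind Cenpa at 0.16 and Arpc5 at 0.17. For Prkcz the nearest were Frk at 0.12, Bckdhb at 0.15 and Anxa9 at 0.15. Those of Ezr were Asz1 at 0.13, Lsm8 at 0.14 and Gtf2b at 0.15, and those of Rdx were Pikfyve at 0.06, Eif2b4 at 0.07 and Haus6 at 0.07. These are descriptions over 10 libraries that share 5 treatments.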

How the data were processed

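Total RNA-seq values of 10 libraries from 8-cell embryos were taken as the authors deposited them: log2 values of gene abundance with an added constant of 1, in 3 tables of 24421 genes. The kind of abundance is not named. The submitters' processing notes list HISAT2 2.1.0, SAMtools 1.7, Cufflinks, StringTie 1.3.4 and mm10. Per the labels' protocols, libraries were random-primed and depleted of ribosomal cDNA. No counts were used, so depth is unknown, and the added constant understates changes of low genes. Between 25.95% and 34.46% of a library's values are 0.

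A gene was tested where 2 or more of the fitted libraries reached 1 linear unit. The test was limma 3.58.1 (eBayes, trend; R 4.3.3), checked on simulated data, and a call needed an adjusted p (Benjamini-Hochberg, all tested genes) below 0.05. Ctrl stands only in the motif knockout table. The knockdowns were therefore compared across tables, whose scaling may differ, in a fit of all 10 libraries (11195 genes, 5 residual degrees of freedom). The linear values of a library summed to 388454 to 395401 in Ctrl and the knockdowns. They summed to 478651 to 498621 in the motif knockouts, which share a table with Ctrl. The motif knockouts were compared in a fit of their 6 libraries (10920 genes, 3 residual degrees of freedom). Centring subtracts each library's median over tested genes.

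The 9 genes and the lists were chosen with earlier results of these data known. Genes named are the 9, list genes called in any of 6 comparisons, the targets and the 3 genes most alike in profile to each of the 9 called against Ctrl, leaving out predicted genes and pseudogenes. Alternatives were centring, no filter, a minimum of 5 linear units, an added constant of 0.1, other libraries in the fit, a replicate block and leaving out each library.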

Additional observations from a re-analysis of the deposited data

Results flagged for a closer look

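Mark2 differed between the knockdowns: its difference from Ctrl was 0.17 in siTfap2c and -0.14 in siKlf5, and the test of the difference between them gave 0.31 on the log2 scale (SE 0.10, adjusted p = 0.045 from limma). The libraries stood at 6.15 and 6.05 log2 units in siTfap2c and 5.75 and 5.82 in siKlf5. The call ended after centring (0.25, adjusted p = 0.13), with no filter on low values (adjusted p = 0.090) and without any 1 of the 4 libraries.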

How the results depend on the processing

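Of the 10 calls on the 9 genes, 3 held without each library: Pard6b in both knockdowns and Rdx in CdxE2_KO. These held under the other settings tried as well. The number of the 9 called moved as follows. In siKlf5 it was 2, and 1 with no filter, 1 with a minimum of 5 linear units and 1 to 1 without single libraries; in siTfap2c it was 3, and 2 with no filter, 1 with the minimum of 5 and 1 to 2 without single libraries. In Arpc1bE_CdxE1_KO it was 2, and 0 after centring, 1 with no filter, 3 with the minimum of 5, 3 with all 10 libraries in the fit (Pard3 added in both) and 0 to 1 without single libraries; in CdxE2_KO it was 2, and 3 after centring (Ezr lost, Pard6b and Llgl1 added as lower), 4 with the minimum of 5, 4 with all 10 libraries in the fit and 1 to 2 without single libraries. For siTfap2c against siKlf5 it was 1, and 0 after centring, 0 with no filter, 2 with the minimum of 5, 2 with only the 4 libraries in the fit, 2 with the replicate block (Mark2 and Prkci) and 0 to 1 without single libraries. Between the motif knockouts it was 0 throughout, and the replicate block changed no other count of the 9. Replicate numbers did not pair the libraries: the correlations between groups of the difference between replicates 1 and 2 were -0.05 to 0.04 over 11195 genes. Msn and Prkcz were not tested under the minimum of 5 linear units, because fewer than 2 of the fitted libraries reached it. The cause of the other changes was not tested.

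Directions that reversed were all of values not called under the setting. After centring, the differences in Arpc1bE_CdxE1_KO were -0.16 for Pard6b, -0.02 for Pard3, -0.03 for Prkci, -0.28 for Mark2, -0.01 for Msn and -0.06 for Ppp1r12a, in CdxE2_KO -0.17 for Pard3, -0.31 for Prkcz, -0.24 for Mark2 and -0.22 for Msn, and for Rdx in siTfap2c against siKlf5 -0.06. Without single libraries the ranges crossed 0 for Pard3 in siKlf5 (-0.07 to 0.10), Ezr in siTfap2c (-0.26 to 0.30), Mark2 (-0.10 to 0.17) and Prkcz (-0.20 to 0.03) in Arpc1bE_CdxE1_KO, and Prkcz (-0.33 to 0.37) and Msn (-0.21 to 0.42) in CdxE2_KO. The same held in siTfap2c against siKlf5 for Rdx (-0.01 to 0.04), Msn (-0.17 to 0.11) and Pard6b (-0.03 to 0.23), and in CdxE2_KO against Arpc1bE_CdxE1_KO for Mark2 (-0.09 to 0.18), Prkci (-0.06 to 0.19), Msn (-0.52 to 0.11) and Prkcz (-0.24 to 0.45).

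Over all genes, the 842 calls in siKlf5 became 507 with no filter and 211 to 317 without single libraries, the 2749 in siTfap2c 1535 to 1773 without single libraries, and the 2865 in siTfap2c against siKlf5 1587 to 1785. The 2621 in Arpc1bE_CdxE1_KO became 321 after centring, 1166 with no filter, 313 without Ctrl replicate 1 and 161 without Ctrl replicate 2, and the 3270 in CdxE2_KO became 681, 1858 and, without single libraries, 514 to 1099. The 5 between the motif knockouts became 0 with no filter, 14 with all 10 libraries and 4 to 200 without single libraries. Whether differences of the size seen for Pard3, Prkci, Mark2 and Llgl1 were called rested on the setting. So did the calls against Ctrl of Ezr, Msn and Prkcz, and that of Rdx in Arpc1bE_CdxE1_KO. Each group held 2 libraries, depth is unknown, and Ctrl stands in another table than the knockdowns. The part of these limits in the changes was not tested.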
